A study of Drosophila melanogaster with 5 samples.

Results

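Glutathione transferases were measured in Drosophila melanogaster salivary glands, 14 h after puparium formation, with and without a heat-inducible fork head (fkh) transgene. The members are the probe sets whose only annotated gene symbol is GstD, GstE, GstO, GstS, GstT or GstZ with a number. This rule took 36 of the 18952 probe sets on the array, for 34 genes: 11 delta (GstD), 13 epsilon (GstE), 3 omega (GstO), 1 sigma (GstS), 4 theta (GstT) and 2 zeta (GstZ). GstE9 and GstO2 have 2 probe sets each, and GstE8 was not analysed here. The first group, 3 arrays, is labelled as glands from carriers of P{hs-Fkh111}, in which a heat-shock promoter, active throughout the body and not in the gland alone, drives fkh, the gene of a forkhead transcription factor of the gland. The other 2 arrays are glands of w1118, a white-eyed control strain that the titles write as w1118(3). Animals of both groups were kept at 25 °C and given a heat shock of 30 min at 37 °C when 9.5 h had passed since puparium formation, and their glands were taken at 14 h. The comparison asks which transcripts differ at that time between glands labelled as carrying the transgene and those of the control strain.

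Cytosolic glutathione transferases join the tripeptide glutathione to reactive or foreign molecules, which makes them more soluble and ready for export. Insects have large delta and epsilon classes that arose by tandem duplication and are known for the breakdown of insecticides and of lipid peroxidation products. The omega, sigma, theta and zeta classes are shared with other animals. In flies many of these genes are induced by oxidative or chemical stress through CncC, a bZIP factor that pairs with the small Maf protein maf-S and is held back by Keap1.

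The fkh probe set went against the labels. It read 41.5, 47.0 and 58.3 in the Fkh arrays and 130 and 120.3 in the w1118 arrays, a log2 fold of -1.13 ± 0.17 (SE; limma adjusted p = 0.0026). Whether this probe set lies within the part of fkh in the transgene was not tested, and fkh closer to the heat shock was not measured. The first group is therefore named here by its label only, as the Fkh arrays, and each direction below rests on the labels. Each gene of a marker or pathway list is counted here by its brightest probe set, and of all genes tested in that way 21.5% rose and 19.3% fell. Of 17 measured salivary gland markers 6 rose and 2 fell, and fkh was 1 of the falls. The summed intensity of the 17 was 148341 or more in each Fkh array and 117599 or less in each w1118 array. Most of that gap was Sgs1, Sgs3 and Sgs5, with means of 6989, 5934 and 10172 against 633, 867 and 818. Most of the measured Eig71E genes were not called. The actin 3' to 5' ratio, which rises as RNA or its labelling is less complete, was 3.37 to 4.94 in the Fkh arrays and 2.47 and 2.54 in the w1118 arrays. Of 6 measured fat body markers, all tested, 4 fell and 0 rose, with a summed intensity of 11621 to 13023 against 21744 to 22878. Of 7 measured haemocyte markers 5 were tested, of which 3 fell and 0 rose. Hml and eater were too dim to be tested, and their groups overlapped. He was not called, with every Fkh array above both w1118 arrays (means of 39.8 and 34.8). The haemocyte sums were 502 to 612 against 1301 to 1417, and most of that gap was NimC4, with a mean intensity of 222 against 913. Fat body and haemocytes also express glutathione transferases. The part of these differences in the results below was not tested, and in such bulk samples fewer cells of a type and less RNA per cell cannot be told apart.

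The family did not move as a block: members of the same class, and neighbours in the same tandem run, went in opposite directions. Of 36 probe sets, 31 were bright enough to be tested, and of these 15 rose, 9 fell and 7 did not pass the test. A probe set is said to have risen or fallen where it was higher or lower in the Fkh arrays with a limma adjusted p under 0.05, adjusted over all 11261 probe sets tested. Among all those probe sets 20.7% rose and 18.7% fell, 39.4% together. In 15 of the 31 every Fkh array lay above both controls and in 13 below both, beside 31.6% and 32.1% of all probe sets tested. Rises of at least 2-fold numbered 12 and falls of that size 5, beside 12.2% and 9.56% of all probe sets tested. The median log2 fold of the 31 was 0.24, with a range of -2.89 to 4.88, while the median of all probe sets tested was -0.01. The median of the members was not stable. Under the alternatives described at the end it lay between 0.016 and 0.41, and that of all probe sets tested between -0.080 and 0.025. The filter on the mean of all arrays let through GstD6, GstD7 and GstE6 among the rises and GstE7 among the falls although 1 of their group means lay under it. With no filter all 36 were tested, and 11 rose and 9 fell, beside 12.2% and 11.8% of 18769.

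**Figure D1:**
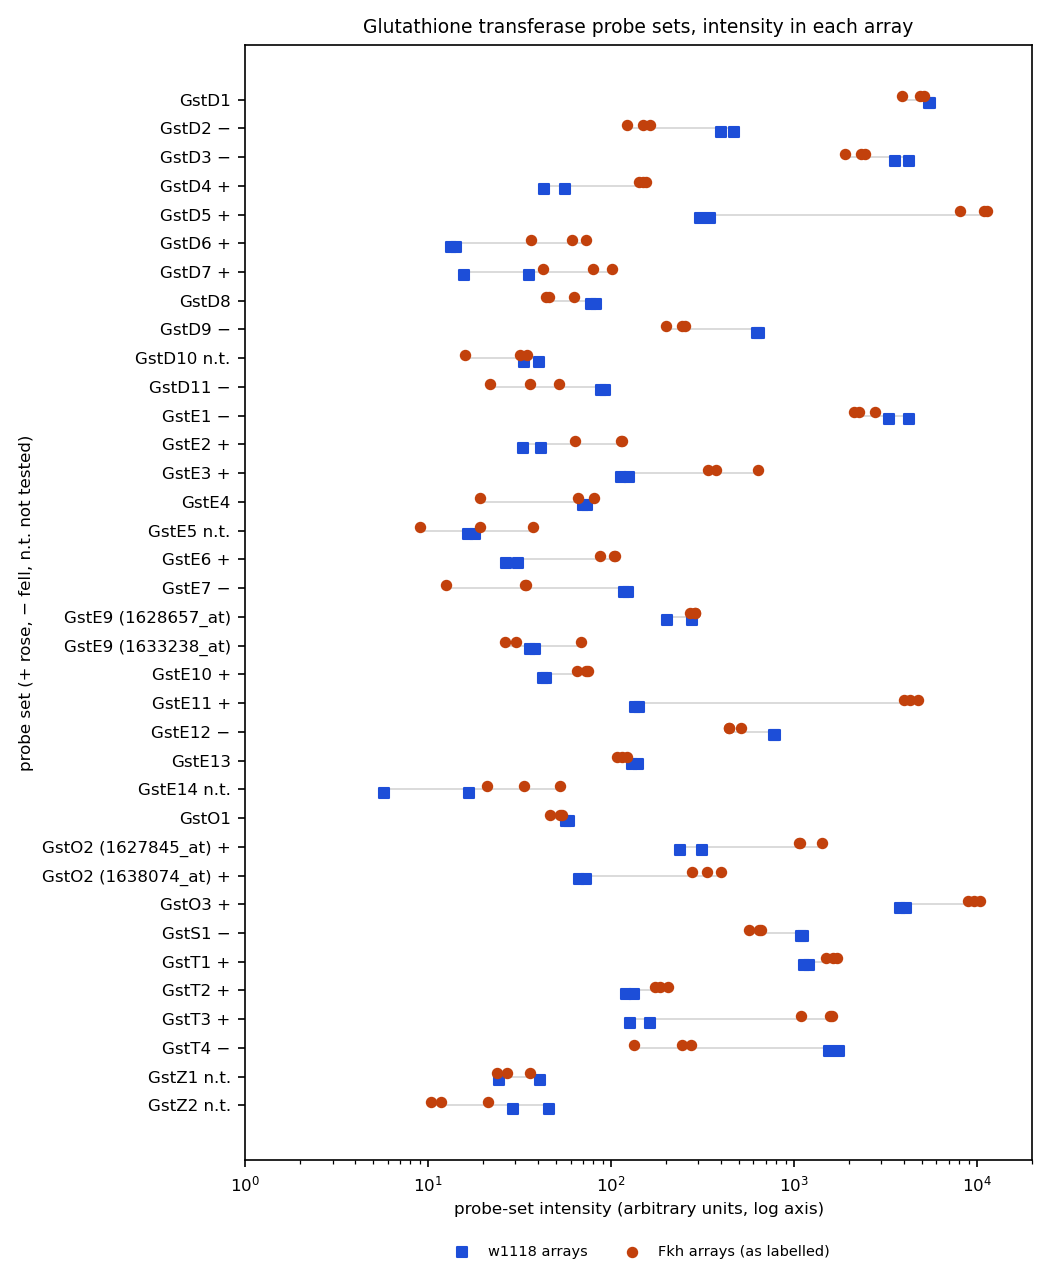
Intensity of each glutathione transferase probe set (rows, by class) in the 3 Fkh arrays (circles) and the 2 w1118 arrays (squares), on a log axis in arbitrary units, with + for rose, − for fell and n.t. for not tested. The widest gaps are the rises of GstD5, GstE11 and GstT3 and the fall of GstT4; rows should be read singly, since intensities of different probe sets are not on a shared scale.

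The delta class was split evenly, with 4 rises and 4 falls among 10 tested probe sets. GstD5 read 10954, 11353 and 8061 in the Fkh arrays and 305 and 345 in the w1118 arrays. The groups were far apart: the means were 10123 ± 1797 (SD, n = 3) and 325 ± 28.5 (SD, n = 2), a ratio of 31.1. Its log2 fold on the log2(intensity + 16) scale was 4.88 ± 0.20 (SE; limma adjusted p = 1.5e-05), the largest of the 31 members tested. GstD4 read 156, 149 and 142 against 56.3 and 43.1, a log2 fold of 1.34 ± 0.16 (SE; limma adjusted p = 0.00097). GstD6 and GstD7 were dim. GstD6 read 61.2, 72.8 and 36.4 against 13.3 and 14.2, with a log2 fold of 1.26 (standard error 0.24, limma adjusted p = 0.0071). GstD7 read 101, 79.3 and 42.7 against 35.4 and 15.8, and rose by 1.10 on the log2 scale (standard error 0.34, limma adjusted p = 0.041). In both, the third Fkh array was the lowest of its group but still above both controls.

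The falls of the delta class were smaller than the rise of GstD5. GstD2 read 149, 123 and 163 in the Fkh arrays against 400 and 470.1 in the w1118 arrays, a log2 fold of -1.49 ± 0.18 (SE; limma adjusted p = 0.00096). GstD9 read 244, 255 and 201 against 626 and 640.3, a log2 fold of -1.39 ± 0.16 (SE; limma adjusted p = 0.00091). The arrays of the 2 groups did not overlap in either gene. GstD3 averaged 2220.1 ± 289 (SD, n = 3) against 3896 ± 480.5 (SD, n = 2), a log2 fold of -0.81 (limma adjusted p = 0.013). GstD11, at 36.2, 52.2 and 21.7 against 87.8 and 92.5, had a log2 fold of -1.05 (limma adjusted p = 0.018). With a single control array some of these calls were lost while the size of the difference stayed near. Without w1118 array 2, GstD3 had a log2 fold of -0.68 (limma adjusted p = 0.085). GstD11 had -1.08 and -1.02 without w1118 array 1 and 2 (limma adjusted p = 0.079 and 0.088).

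GstD1, a delta enzyme that acts on DDT and whose upstream region is used as a reporter of CncC activity, did not pass the test. It read 4854, 5153 and 3887 in the Fkh arrays and 5500.1 and 5514 in the w1118 arrays, so all 3 lay below both controls. Its log2 fold was -0.26 ± 0.18 (SE; limma adjusted p = 0.28). GstD8 read 46.0, 62.7 and 43.8 against 77.9 and 83.1, with a log2 fold of -0.54 just outside the threshold (limma adjusted p = 0.051). Its limma adjusted p was 0.039 without Fkh array 2, but 0.14 without Fkh array 1 and 0.078 without Fkh array 3. GstD10 stayed under the filter at 34.6, 15.99 and 31.7 against 33.4 and 40.3, and its groups overlapped.

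In the epsilon class 1 gene stood out in size. GstE11 read 3984, 4317 and 4736 in the Fkh arrays and 142 and 135 in the w1118 arrays. The means were 4346 ± 377 (SD, n = 3) and 138 ± 4.82 (SD, n = 2), a ratio of 31.4, and the log2 fold was 4.82 ± 0.15 (SE; limma adjusted p = 7.1e-06). Unlike GstD5, it was highest in the third array. Over the class, 5 of 12 tested probe sets rose and 3 fell.

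The other epsilon rises were of 3.79-fold or less in the ratio of mean intensities. GstE3 read 375, 337 and 638 against 113 and 125, a log2 fold of 1.74 ± 0.28 (SE; limma adjusted p = 0.0034). The third array was again apart from the other 2 of its group. GstE6 read 104, 87.1 and 103 against 26.7 and 31.1, a log2 fold of 1.35 ± 0.16 (SE; limma adjusted p = 0.00087). GstE2, at 115, 113 and 63.3 against 41.2 and 33.1, rose by 1.06 on the log2 scale (limma adjusted p = 0.017). GstE10, at 74.4, 73.0 and 64.9 against 42.4 and 44.1, rose by 0.55 (limma adjusted p = 0.025). Both of these calls were lost without any single array other than Fkh array 3: their adjusted p was 0.054 and 0.084 without Fkh array 1, 0.053 and 0.080 without Fkh array 2, 0.061 and 0.12 without w1118 array 1, and 0.10 and 0.092 without w1118 array 2.

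Among the epsilon falls, GstE7 read 33.8, 34.2 and 12.6 in the Fkh arrays and 117 and 123 in the w1118 arrays, a log2 fold of -1.72 ± 0.27 (SE; limma adjusted p = 0.0032). GstE12 averaged 465 ± 39.5 (SD, n = 3) against 780.1 ± 8.11 (SD, n = 2), a log2 fold of -0.73 ± 0.15 (SE; limma adjusted p = 0.0094; 0.058 without w1118 array 1 and 0.050 without w1118 array 2). GstE1, an inducible enzyme, read 2132, 2279 and 2770.1 against 3315 and 4256, a log2 fold of -0.66 (limma adjusted p = 0.035). That fall was lost without any 1 array except Fkh array 3, with adjusted p of 0.11 and 0.096 without Fkh array 1 and 2, and 0.054 and 0.19 without w1118 array 1 and 2.

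The remaining epsilon probe sets showed no call. The probe sets of GstE9 had log2 folds of 0.24 (limma adjusted p = 0.33) and 0.05 (0.91), and the arrays of the groups overlapped in both. GstE13 had -0.21 (limma adjusted p = 0.29). GstE4 was uneven, at 65.6, 80.4 and 19.1 against 73.7 and 69.9, with a log2 fold of -0.43 ± 0.42 (SE; limma adjusted p = 0.45). GstE5 and GstE14 were under the filter. GstE14, the noppera-bo gene that the prothoracic gland needs to make ecdysone, read 52.6, 33.3 and 21.0 against 16.6 and 5.70, all 3 above both controls. With no filter its log2 fold was 0.91 ± 0.30 (SE; limma adjusted p = 0.069).

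The omega class, whose enzymes reduce mixed disulfides and dehydroascorbate more than they conjugate glutathione, held rises only among its calls. Both probe sets of GstO2 rose alike. The brighter read 1060.3, 1074 and 1428 against 312 and 237, a log2 fold of 2.05 ± 0.21 (SE; limma adjusted p = 0.00047). The other read 334, 277 and 398 against 66.8 and 72.5, a log2 fold of 2.02 ± 0.19 (SE; limma adjusted p = 0.00033). GstO3 read 8951, 9620.0 and 10438 against 4105 and 3802, a log2 fold of 1.29 ± 0.15 (SE; limma adjusted p = 0.00093). In all 3 probe sets the third array was the highest of its group, and no array of one group reached the other. GstO1 read 53.7, 52.6 and 46.5 against 56.7 and 58.8, with a log2 fold of -0.14 ± 0.15 (SE; limma adjusted p = 0.48).

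The omega run also holds sepia (se), an omega transferase outside the naming rule that makes a precursor of the red eye pigments. It lies between GstO3 and GstO2. The se probe set read 3649, 3832 and 4023 in the Fkh arrays and 59.6 and 72.0 in the w1118 arrays. Its log2 fold was 5.56 ± 0.15 (SE; limma adjusted p = 4.9e-06), above that of each of the 31 members tested.

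The theta class held 1 large rise and the largest fall of the family. GstT3 read 1565, 1611 and 1094 in the Fkh arrays and 164 and 127 in the w1118 arrays, a log2 fold of 3.14 ± 0.22 (SE; limma adjusted p = 9.9e-05). GstT4 went the other way, at 272, 245 and 133 against 1757 and 1545, a log2 fold of -2.89 ± 0.30 (SE; limma adjusted p = 0.00050). The groups did not overlap in either gene, and the third array was the lowest of its group in both. GstT1 rose by 0.46, from 1168 ± 52.2 (SD, n = 2) to 1614 ± 107 (SD, n = 3), and GstT2 by 0.51, from 127 ± 9.32 to 188 ± 16.6. Their limma adjusted p was 0.048 and 0.040, and both calls were fragile: with quantile normalization, median centring, the replicate block, no filter or one at the 20th percentile, GstT3 was the 1 theta probe set that rose. Their adjusted p was 0.13 and 0.13 without Fkh array 1, 0.14 and 0.071 without Fkh array 2, 0.20 and 0.10 without w1118 array 1, and 0.13 and 0.18 without w1118 array 2.

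The sigma and zeta classes are small. GstS1, an enzyme that conjugates the lipid peroxidation product 4-hydroxynonenal and is abundant in flight muscle, fell from 1108 ± 14.9 (SD, n = 2) to 626 ± 50.8 (SD, n = 3). Its log2 fold was -0.81 ± 0.15 (SE; limma adjusted p = 0.0062). Of 3 measured muscle markers TpnC73F alone was tested, and it was not called, with a log2 fold of 0.18 (limma adjusted p = 0.39). It made up most of the summed intensity of 272 to 332 against 281 to 284. The other 2, Mlc2 and up, were under the filter with means of 9.77 and 15.3 against 14.2 and 24.2, and in both every Fkh array lay below both controls. The part of muscle RNA in the fall of GstS1 was not tested. GstZ1 and GstZ2, of the class that isomerises maleylacetoacetate in tyrosine breakdown, were both under the filter. GstZ2 read 11.7, 10.4 and 21.2 against 29.1 and 45.5, and with no filter its log2 fold was -0.81 (limma adjusted p = 0.045). GstZ1 overlapped between the groups.

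Most members lie in tandem runs, taken here as family members that follow each other within 10000 bases in the RefSeq gene table of Release 6. The delta run on arm 3R holds all 11 GstD genes. In gene order, GstD9, GstD2 and GstD3 fell with GstD1 uncalled among them, GstD4 to GstD7 rose, GstD8 was not called and GstD11 fell. In that stretch GstD6 and GstD7 passed the filter, an intensity of about 33.2, only through the Fkh arrays, and GstD7 was called in 7 of the 14 alternatives and not with no filter (limma adjusted p = 0.051). The largest rise, that of GstD5, was flanked by rises of 1.34 and 1.26 on the log2 scale in GstD4 and GstD6. Delta genes are close in sequence, and how far the probes of one gene pick up transcripts of its neighbours was not tested. The epsilon run on arm 2R, from GstE10 to GstE9, had 4 rises and 2 falls among 9 tested probe sets, and rises and falls were interspersed: GstE1 fell between GstE10 and GstE2, and GstE7 fell next to GstE6. The calls of GstE10, GstE1 and GstE2 were each lost without Fkh array 1 or 2. Those of GstE6 and GstE7 were kept without any 1 Fkh array, although each passed the filter through 1 group only. GstE11, the epsilon gene with the largest change, lies outside that run.

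**Figure D2:**
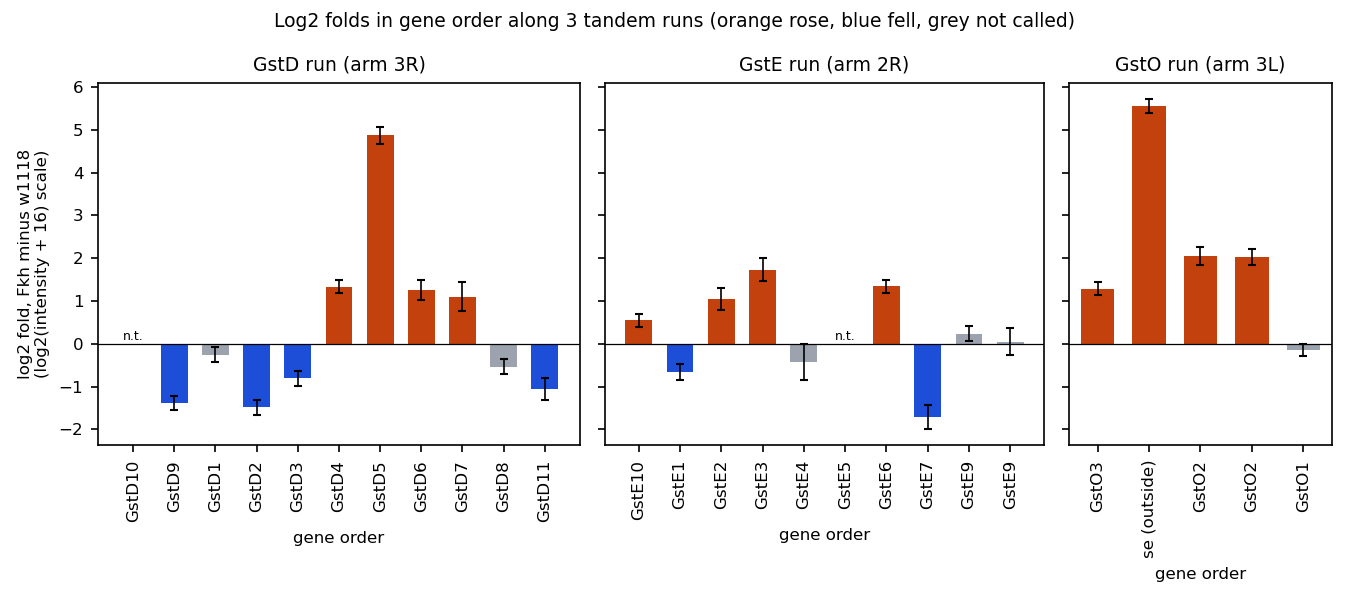
Log2 fold of each gene (Fkh arrays minus controls, log2(intensity + 16) scale) in gene order along the delta, epsilon and omega runs, with standard errors from limma; n.t. marks genes under the filter, and GstE9 and GstO2 have 2 probe sets. The adjacent genes GstD4 to GstD7 all lie above 0, with GstD5 highest and the call of GstD7 lost with no filter. Rises and falls are interspersed along the epsilon run, where the calls of GstE10, GstE1 and GstE2 were lost without Fkh array 1 or 2. The bar of se exceeds its omega neighbours.

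The omega run on arm 3L had 3 rises among 4 tested probe sets and 0 falls. The theta pair GstT1 and GstT2 on arm 2R moved alike at 0.46 and 0.51, while GstT3 and GstT4, both on X but not in a run, moved apart. Genes next to the delta, epsilon and omega runs went in both directions. Beyond the omega run, CG6683 rose by 0.91 on the log2 scale, CG6765 had a log2 fold of -0.51 (limma adjusted p = 0.11), and foi and ergic53 had -0.02 and -0.01. On one side of the delta run CG4115 fell by 0.99, and on the other CG33098 had -0.39 (limma adjusted p = 0.21). The epsilon run had Idgf5 before GstE10 with a log2 fold of -0.56 (limma adjusted p = 0.16). Beyond GstE9, imd, an adaptor of immune signalling, fell by 1.54, and Dp1 rose by 0.66. BomS6, Tim17a1 and Sol1, also next to these runs, were under the filter.

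The 3 genes of the Keap1-CncC pathway all rose, beside 21.5% of all genes tested. Keap1, the repressor of CncC, read 1841, 1938 and 1530.1 in the Fkh arrays and 229 and 269.9 in the w1118 arrays, a log2 fold of 2.75 ± 0.17 (SE; limma adjusted p = 6.2e-05). The partner maf-S read 7758, 7848 and 7642 against 2927 and 2488, a log2 fold of 1.52 ± 0.15 (SE; limma adjusted p = 0.00044). The probe set of cnc, which encodes CncC and shorter forms that this value does not separate, read 3987, 4537 and 3820 against 1730.4 and 2188, a log2 fold of 1.07 ± 0.17 (SE; limma adjusted p = 0.0036). All 3 rises were called when single arrays were left out. The probe sets of Keap1, cnc and GstS1 carry the suffix that Affymetrix gives to probes shared by several transcripts.

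Glutathione synthesis starts with glutamate-cysteine ligase, and both subunits of that enzyme rose. The catalytic subunit Gclc read 1349, 1345 and 2913 against 557 and 509, a log2 fold of 1.68 ± 0.35 (SE; limma adjusted p = 0.0097). The modifier subunit Gclm read 853, 1085 and 354 against 156 and 225, a log2 fold of 1.80 ± 0.45 (SE; limma adjusted p = 0.021). The third array was the highest of its group for Gclc and the lowest for Gclm. Without w1118 array 1 the adjusted p of Gclc and Gclm was 0.051 and 0.12, and without w1118 array 2 it was 0.060 and 0.059. Without Fkh array 1 that of Gclm was 0.060. Of 7 listed genes of glutathione synthesis, turnover and conjugate export, 5 were measured and 4 tested. Of these 2 rose and 0 fell, beside 21.5% and 19.3% of all genes tested, and Ggt-1 and the transporter MRP were not called.

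Among other antioxidant enzymes tested, catalase (Cat), which breaks down hydrogen peroxide, differed most. It read 706, 749 and 611 against 4876 and 4510.4, a log2 fold of -2.74 ± 0.16 (SE; limma adjusted p = 4.3e-05). Of 9 tested genes of the peroxide, superoxide and thioredoxin list, 2 rose and 3 fell, beside 21.5% and 19.3% of all genes. The peroxiredoxin Prx6c fell by 1.57 on the log2 scale (limma adjusted p = 0.00079), and the mitochondrial superoxide dismutase Sod2 rose by 0.96 (limma adjusted p = 0.0045). Trxr1, the thioredoxin reductase that also serves glutathione in flies, had a log2 fold of -0.42 (limma adjusted p = 0.16). Among proteins that carry a transferase fold or name outside the rule, Clic fell by 0.83 (limma adjusted p = 0.0096, and 0.055 without either w1118 array), and Mgstl, gfzf and eEF1gamma were not called. Of 35 measured UDP-glycosyltransferases, another family of conjugating enzymes, 14 were tested, 4 rose and 2 fell, beside the same 21.5% and 19.3%. The log2 folds of Ugt36D1 and Ugt37D1 were -2.20 and -1.81 (limma adjusted p = 0.00030 and 0.00031), and Ugt317A1 rose by 1.40 (limma adjusted p = 0.00082).

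**Figure D3:**
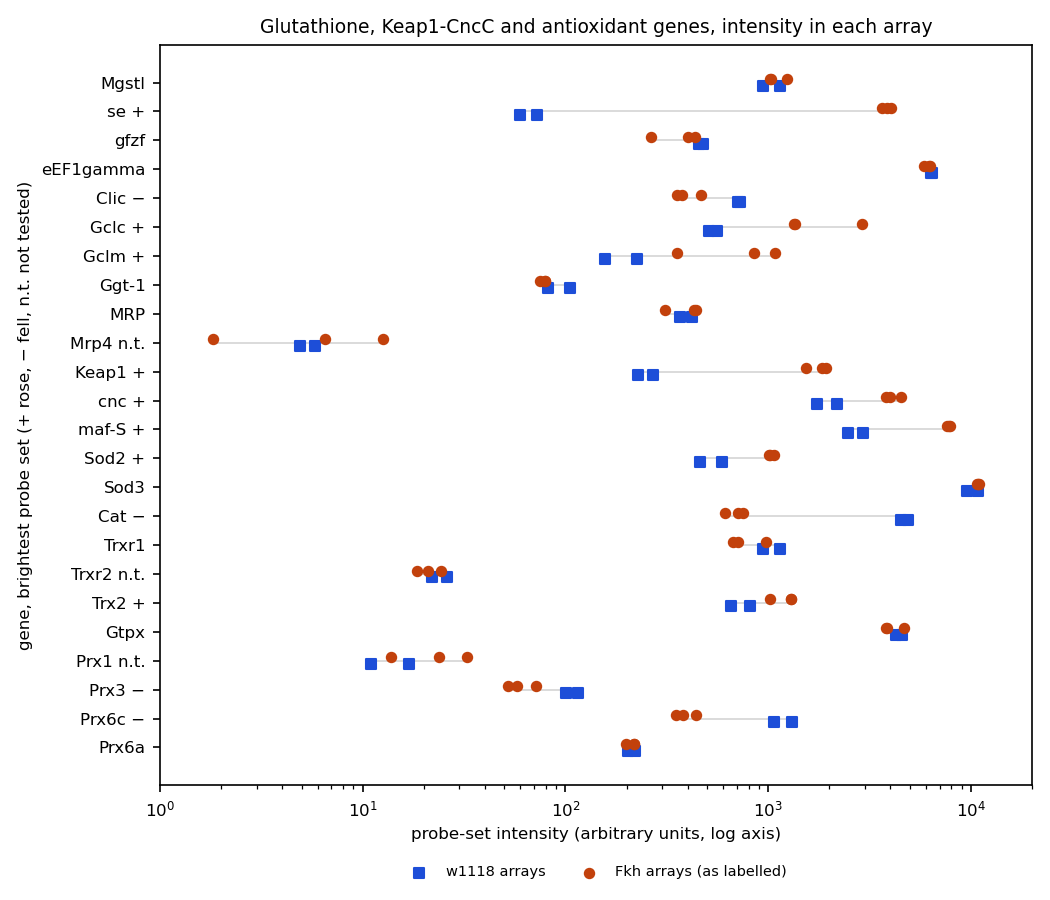
Intensity of the genes of glutathione metabolism, the Keap1-CncC pathway and antioxidant defence in the 3 Fkh arrays (circles) and the 2 w1118 arrays (squares), log axis in arbitrary units, 1 row per gene at its brightest probe set. Keap1, cnc and maf-S lie higher in every Fkh array than in either control, and Cat lies lower.

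Leaving out each array in turn separated firm from fragile members. Of the 15 rises, 9 were called in all 5 of these fits: GstD4, GstD5, GstE3, GstE6, GstE11, both probe sets of GstO2, GstO3 and GstT3. Of the 9 falls, 5 were: GstD2, GstD9, GstE7, GstS1 and GstT4. In these fits 14.2% to 22.9% of all probe sets tested rose and 10.9% to 20.5% fell. The same 9 and 5 were called under all 14 alternatives tried. GstD6 was under the filter without Fkh array 1 or 2, and GstD7 had an adjusted p of 0.10 without either of them, 0.052 without w1118 array 1 and 0.22 without w1118 array 2. One alternative kept the third Fkh array alone of its group, so that the spread came from the w1118 pair only. There 9 members rose and 8 fell, beside 11.9% and 12.4% of all probe sets, and cnc was not called (limma adjusted p = 0.054).

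**Figure D4:**
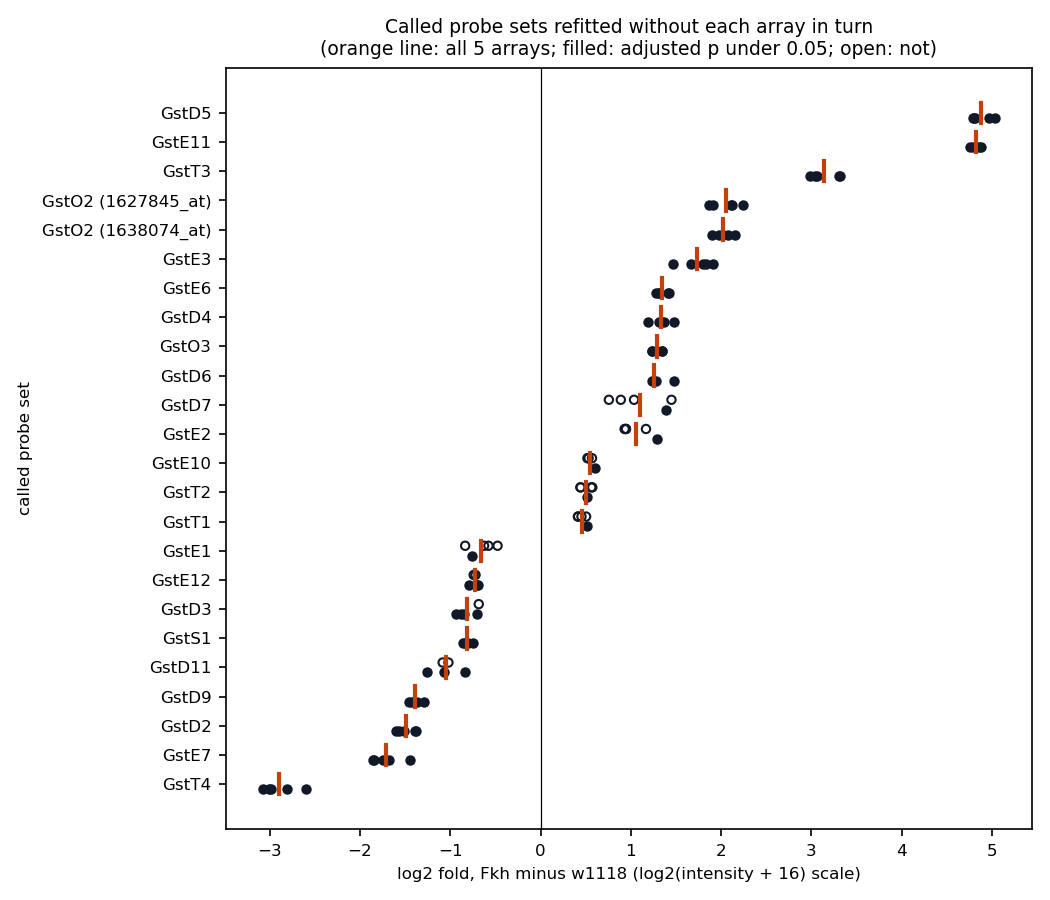
Log2 fold of each called probe set (Fkh arrays minus controls) with all 5 arrays (orange line) and after leaving out single arrays (circles; filled where the adjusted p stayed under 0.05, open where it did not). The 9 rises and 5 falls named above have filled circles only, while GstD7, GstE1, GstE2, GstE10, GstT1 and GstT2 have 1 filled circle each. GstD6 also has filled circles only, but just 3, since it was under the filter without Fkh array 1 or 2.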

How the data were processed

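RNA of dissected glands was hybridised to 5 Affymetrix 1-colour arrays as biotin-labelled cRNA, per the labels' protocols. Each probe set has 1 deposited intensity value per array. Per the series' design text, the authors used dChip and scaled all arrays to a common baseline array with a median intensity of 134. For its version, model and background correction, nothing was given in the sources used here. Array medians were 44.5 to 49.3, and the number of arrays limits the precision. Values were transformed as log2(intensity + 16), which understates changes of dim probe sets. The 183 control probe sets were left out, and those with a mean above the 40th percentile were tested, 11261 of 18769, with limma 3.58.1 in R 4.3.3 (3 residual and 3.63 prior degrees of freedom), two-sided, with Benjamini-Hochberg adjustment and a threshold of 0.05. The procedure was also run on simulated data with a spread common to all probe sets and far fewer changes than were called here. That run does not show how many of the calls above are false. Symbols come from the platform annotation, and gene order from the RefSeq table of Release 6. A gene on a list is its brightest probe set with 1 symbol. Every member and fkh were named, with up to 3 other called genes of each list. Genes next to the runs were chosen after the values were seen. The members and lists were chosen with earlier results of these data known. A search for promoter motifs was planned and is not reported here. The submitters call the samples biological replicates. Plots were made in Python 3.11.15 (matplotlib 3.10.9).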

Additional observations from a re-analysis of the deposited data

How the results depend on the processing

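Under 14 alternatives (the added constant, filter, scaling, variance model, replicate block and choice of arrays), 15 rises and 9 falls became 9 to 15 rises and 5 to 10 falls. The share of all probe sets tested moved too, from 11.9% to 22.9% for rises and from 10.9% to 22% for falls. Leaving out each array in turn gave 9 to 15 rises and 5 to 9 falls: 9 rises without Fkh array 1 or 2, and 5 falls without w1118 array 2. The third Fkh array alone, chosen with earlier results known and with its spread from the w1118 pair only, gave 9 rises. Fewer arrays were used in these fits. With the replicate block there were 13 rises and 9 falls, and GstT1 and GstT2 were then not called (adjusted p = 0.057 and 0.058). Number 3 occurs only among the Fkh arrays, so the block sets Fkh array 3 aside in the log2 folds. Where both fits tested a member, its log2 fold was the same as without that array. The block is therefore not a separate check on the log2 folds. The deviations of same-numbered arrays correlated at 0.08 and -0.11, so the numbers are not shown to pair the arrays. Directions turned only in uncalled probe sets: GstE4 had a log2 fold of 0.014 with the replicate block and -0.71 to 0.014 over the fits without 1 array, and the dimmer GstE9 probe set -0.022 with median centring and -0.26 with the replicate block. The cause was not tested. Differences of 0.5 on the log2 scale, such as those of GstE10, GstT1 and GstT2, lie at the edge of what 3 against 2 arrays can show. An exact permutation test of 1 probe set on the ranks of its arrays cannot give a two-sided p below 0.2.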
